A study of Zea mays with 318 samples.

Results

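This account concerns 8 transcription factors of the endosperm storage program of maize, taken by gene identifier from the 39625 genes of the table and followed through kernels of 318 inbred lines at 5 days after pollination (DAP). They are O2 (GRMZM2G015534), PBF1 (GRMZM2G146283), OHP1 (GRMZM2G016150), OHP2 (GRMZM2G007063), NKD1 (GRMZM2G129261), NKD2 (GRMZM5G884137), NAC128 (GRMZM2G062650) and NAC130 (GRMZM2G154182). All 8 identifiers were present, and the question was which of them are already on at this stage. Each line gave 1 RNA-seq library of whole kernels from an untreated field-grown association panel, with seeds of several field blocks mixed beforehand, so no line has a replicate library and every SD below is a spread between lines. By their names 98 lines are CIMBL, 40 are CML and 46 are GEMS lines, and the remaining lines, whose names carry none of these prefixes, are here called unprefixed. Total counts ranged from 6100624 to 29629212 (median 13625468).

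The storage program fills the starchy endosperm, the tissue that feeds the seedling, with zein proteins and starch. O2 (Opaque2) is a bZIP factor that activates zein genes, and PBF1 is a Dof factor that binds the prolamin box of their promoters. OHP1 and OHP2 are bZIP relatives of O2 that can pair with it. NKD1 and NKD2 (naked endosperm) are duplicate zinc finger factors needed for the aleurone, the outer cell layer of the endosperm, and NAC128 and NAC130 are related NAC factors that promote storage protein and starch accumulation later in filling. At 5 DAP a kernel still consists largely of maternal tissue around a young endosperm, and in a bulk library fewer cells of a type and less RNA per cell cannot be told apart. The libraries held the maternal ovule gene ZAG2 at a median of 196 FPKM (fragments per kilobase of gene, scaled for sequencing depth) and Mn1, the cell wall invertase of endosperm transfer cells, at 39.2 FPKM. The embryo gene Lec1 never passed 3 counts. The fourth tissue marker on the list, GRMZM2G111306, was listed for transfer cells like Mn1 but was at 0 counts in 274 lines and at most at 23 counts. RefSeq gives that identifier no name, so its identity was not checked.

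The 2 OHP genes were on, the 2 NKD genes and NAC130 were present at low levels, and O2, PBF1 and NAC128 were at or near 0. A gene was called on where its median over lines was at least 1 FPKM, a level that 51.7% of all genes in the table reached. OHP2 had a median of 15.5 FPKM and OHP1 of 8.47 FPKM. The medians of the others were 0.70 FPKM for NKD1, 0.33 FPKM for NAC130, 0.16 FPKM for NKD2 and 0 for PBF1, NAC128 and O2. Only NKD1 is near the threshold, since it would be counted as on at a threshold of 0.5 FPKM or by a median count of at least 10.

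**Figure D1:**
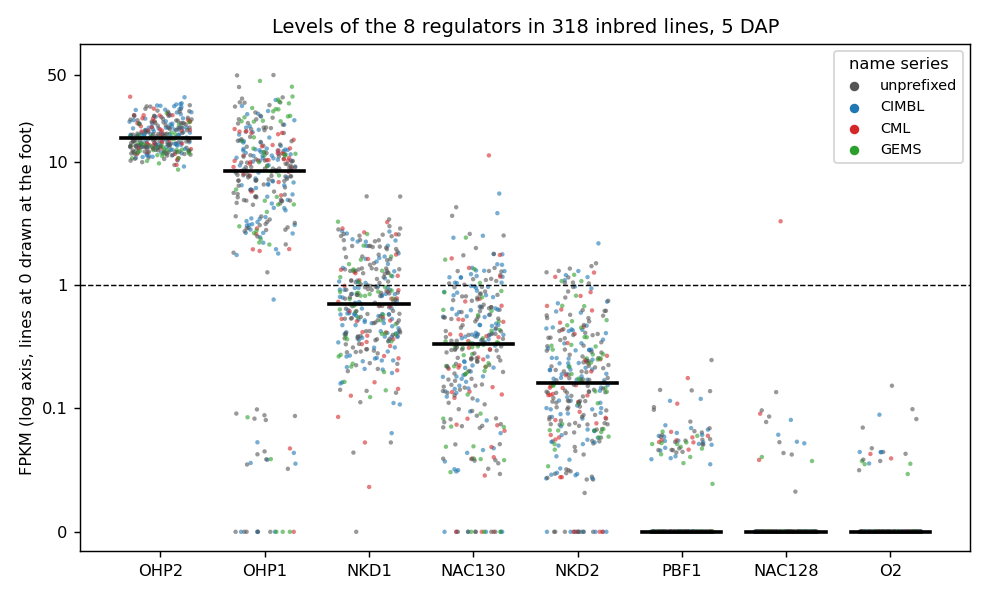
FPKM of the 8 regulators on a log axis, with 1 point per inbred line coloured by name series, a bar at the median and a dashed line at 1 FPKM. Points at the foot are lines with 0 counts. OHP2 is above 1 FPKM in all 318 lines, OHP1 has a separate group of lines under 0.1 FPKM, and O2, PBF1 and NAC128 have their median at 0.

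Counted line by line, with at least 1 FPKM and 10 counts required, OHP2 was on in 318 lines, OHP1 in 285, NKD1 in 31.8% of lines, NAC130 in 48 lines, NKD2 in 19 and NAC128 in 1. O2 and PBF1 were on in 0 lines. Most lines (179) had 2 of the 8 genes on, 13 had 1 and 33.65% of lines had 3. In 160 lines the genes on were OHP1 and OHP2 and no other, and in 69 lines NKD1 was on beside them. CML114 had 6 on, the most of any line.

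O2 itself had 27 counts in all 318 libraries together, and 297 lines had 0. Its highest value was 2 counts, which came to 0.15 FPKM in line 335M. PBF1 had 81 counts in all, 252 lines at 0, and at most 4 counts in a line (0.25 FPKM in Q319-BC6). Neither gene reached 10 counts anywhere. At the median depth 3 counts, the limit that a count of 0 allows, would be 0.12 FPKM of O2 and 0.17 FPKM of PBF1. A library of that depth with 0 counts thus allows levels up to these limits. Lower levels did give counts in some lines, down to 0.029 FPKM of O2 and 0.024 FPKM of PBF1. These limits cover counting error only. For PBF1 there is a further limit. RefSeq assigns its identifier and that of GRMZM2G146267 together to both PBF and an overlapping neighbour, and GRMZM2G146267 was counted in every line, between 2.73 and 32.1 FPKM (median 7.96 FPKM). Reads in the shared stretch cannot be assigned with certainty, also because the counting did not use strand.

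OHP2 was the steadiest member. Its mean was 16.6 ± 4.83 FPKM (SD, n = 318 lines), its lowest value 8.63 FPKM in GEMS3 and its highest 33.6 FPKM in CML486, followed by CIMBL157 (33.3 FPKM) and CIMBL100 (29.8 FPKM). The low end was close packed, with CIMBL121 at 9.14 FPKM and B151 at 9.40 FPKM. No line had fewer than 191 counts. Its coefficient of variation over lines was 0.29, while counting error alone would give 0.043, so the lines differed by more than counting error alone gives. Of all genes in the table, 82.1% had a lower median.

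OHP1 varied far more and in a different way. Its mean was 10.3 ± 8.86 FPKM (SD, n = 318) with a coefficient of variation of 0.86, against 0.064 from counting error. The 318 lines fell into separate clusters. In 32 lines OHP1 had at most 2 counts and 0.098 FPKM, 13 of them with 0 counts, whereas the other 286 lines began at 0.76 FPKM (CIMBL68, 22 counts) and 1.27 FPKM (JI846) and had a median of 9.29 FPKM. Seen on a log2(FPKM + 0.1) scale the gap between these clusters was 2.12. The largest such gap of OHP2 was 0.043. The highest lines were 335M (50.4 FPKM), 335F (50.1 FPKM) and GEMS25 (45.2 FPKM), and lines at 0 included Y1382, SY1052 and QI205.

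**Figure D2:**
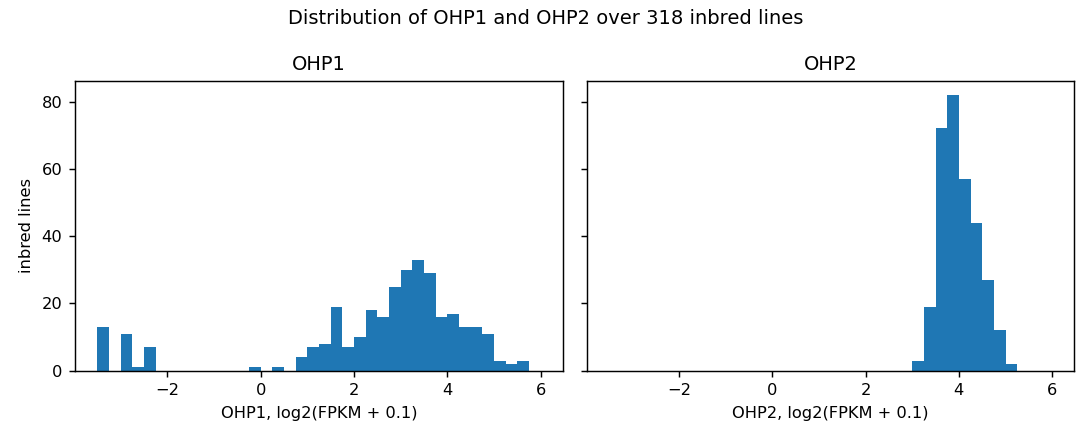
Number of inbred lines by log2(FPKM + 0.1) of OHP1 (left) and OHP2 (right) over 318 lines. OHP1 shows 32 lines at the left, apart from the other 286, and OHP2 forms 1 peak.

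The near-silent OHP1 lines were of similar depth to the others and came from each name series. The median total count was 13765397 in the 32 lines and 13592870 in the other 286. The 32 lines were 16 unprefixed lines (11.9% of these), 9 of 98 CIMBL (9.18%), 2 of 40 CML (5.0%) and 5 of 46 GEMS lines (10.9%). OHP2 stayed on in these lines. Its median was 15.2 FPKM (8.63 to 29.1 FPKM) where OHP1 was near 0 and 15.5 FPKM elsewhere. Only reads that aligned uniquely to the B73 genome were counted, and the part of sequence differences between lines in these low counts was not tested.

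In the same libraries OHP1 was on average lower than OHP2. The within-line difference of log2(FPKM + 1), OHP1 minus OHP2, was -1.09 ± 1.35 (SD, n = 318). OHP1 was the lower in 261 lines and the higher in 57. A sign-flip permutation test (two-sided, 100000 resamples) gave an adjusted p of 1.077e-05 over the 28 pairs of members, the smallest that these resamples can give. Levels of the paralogs did not follow each other beyond the threshold (Pearson's r = 0.12 within the 286 lines with OHP1 present, adjusted p = 0.131 by permutation).

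NKD1 was the highest of the members that were not on. It had a median of 31 counts, a mean of 0.94 ± 0.79 FPKM (SD, n = 318), and at least 10 counts in 89.6% of lines. Its highest lines were SI273 (5.24 FPKM), WU109 (5.22 FPKM) and JIAO51 (3.41 FPKM). SI273 is one of the lines in which OHP1 was near 0, with 1 count. NKD2 was lower, with a median of 6 counts, a mean of 0.27 ± 0.32 FPKM and its highest values in CIMBL88 (2.18 FPKM), JH59 (1.502 FPKM) and YE515 (1.42 FPKM). NKD1 exceeded NKD2 in 293 of 318 lines, by 0.54 ± 0.49 on the log2(FPKM + 1) scale (adjusted p = 1.077e-05, same permutation test). WU109 was among the 6 highest lines of both. For both genes the coefficient of variation over lines, 0.85 for NKD1 and 1.17 for NKD2, was above that of counting error (0.15 and 0.31).

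NAC130 had a median of 8 counts, 18 lines at 0, and a mean of 0.56 ± 0.89 FPKM (SD, n = 318). Its values had a long upper end. CML114 held 11.3 FPKM (273 counts), CIMBL3 5.52 FPKM and line 7327 4.28 FPKM, while 95% of lines were at or under 1.66 FPKM. NAC128 was at 0 counts in 301 lines. CML114 stood alone here as well, with 78 counts and 3.29 FPKM, and the next line, 4F1, had 4 counts and 0.14 FPKM. NAC130 was the higher gene of this pair in 300 lines and NAC128 in 0 (difference NAC128 minus NAC130 of -0.52 ± 0.46 on the log2 scale, adjusted p = 1.077e-05). Of all 28 pairs of members, 26 differed in level. The exceptions were O2 with NAC128 (adjusted p = 0.619) and PBF1 with NAC128 (adjusted p = 0.252, both by permutation), all of them genes with their median at 0. The second of these rested on CML114, since PBF1 was the higher in 63 lines and the lower in 12, and without CML114 the pair passed (PBF1 minus NAC128 of 0.014 on the log2 scale, adjusted p = 1.037e-05 by permutation). The order of mean levels was OHP2, OHP1, NKD1, NAC130 and NKD2, then PBF1 and O2. NAC128 was not placed against these last genes with CML114 included, and came below PBF1 without it. These last places rest on few counts, 81 of PBF1 and 27 of O2 over all lines. Reads of PBF1 also cannot be assigned with certainty. The place of NKD1 above NAC130 (0.32 ± 0.76 on the log2 scale, higher in 216 of 318 lines) turned in the lines with at least 10 counts of both, where NKD1 minus NAC130 was -0.12 ± 0.65 (adjusted p = 0.0477 by permutation). NAC130 had 10 counts in 41.5% of lines and NKD1 in 89.6%, so that minimum selects lines high in NAC130. The turned value therefore does not order the 2 genes over all lines.

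**Figure D3:**
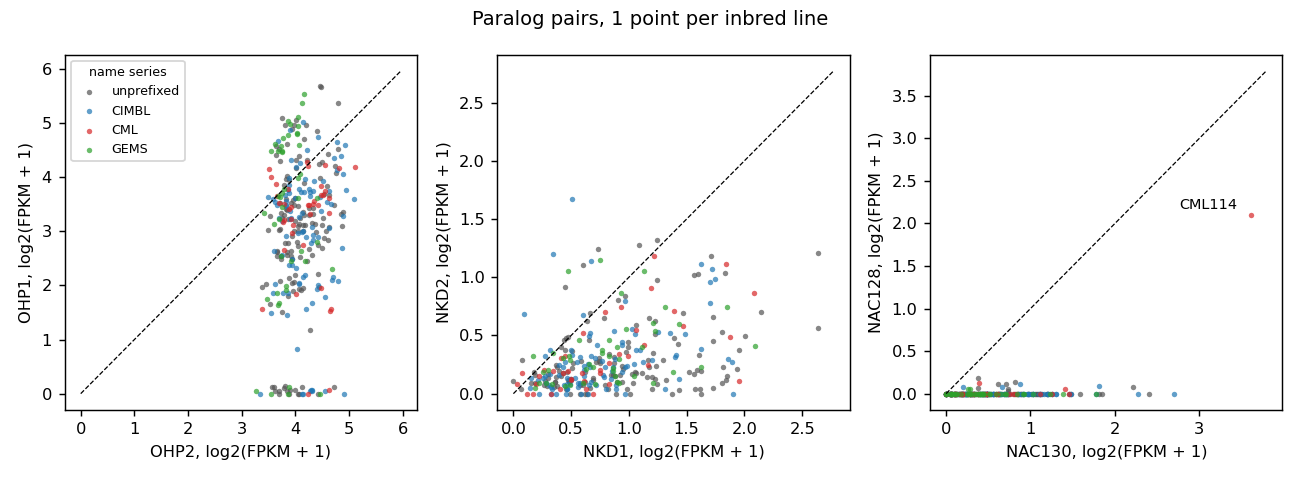
Within-line levels of the paralog pairs as log2(FPKM + 1), with 1 point per line coloured by name series and a dashed line of equal level. OHP1 spans from 0 to above OHP2, NKD1 is above NKD2 in 293 lines, and NAC128 is off the floor in CML114, where it reached 3.29 FPKM.

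CML114, singled out after its values were seen, was the highest of 318 lines in NAC128 and NAC130 and also in 6 of the 41 pathway genes described here. These were the 27-kD gamma-zein gz27 (11.8 FPKM against a median of 0.45 FPKM), the seed regulators O11 (Opaque11, 5.33 against 0.092 FPKM) and Fl3 (Floury3, 129.04 against 0 FPKM), Bt1, the ADP-glucose transporter of endosperm plastids (1.66 against 0 FPKM), Ppdk2, a pyruvate orthophosphate dikinase (6.40 against 0.43 FPKM), and Mn1 (239 against 39.2 FPKM). For Fl3 this was 1918 counts, with 260 of the other lines at 0. O2 had 0 counts in CML114, PBF1 had 2, and 3 of 19 zein genes had any. OHP1 (9.06 FPKM) was near its median there, OHP2 (23.8 FPKM) and NKD1 (2.58 FPKM) were above theirs, and NKD2 was at 1.17 FPKM. Over the whole table CML114 was the highest line in 200 of 37288 genes that were counted at all (0.536%), the 51st place among lines, and its total count was 15123901. This is 1 library of 1 line, with no replicate.

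Few uniquely aligned reads were counted for the zein genes of the storage program. Of 19 zein genes with a RefSeq name, 17 had a median of 0 FPKM and 0 were on by their median. Reads that align to several similar zein copies were not counted, so a value of 0 does not show that zein RNA was absent. Highest was gz27, above 1 FPKM with at least 10 counts in 78 lines. Next came bz15, the 15-kD beta-zein, at a median of 0.068 FPKM. CML115, singled out after its values were seen, was the highest line in 12 of the 19 zeins, each with at most 21 counts. Similar zein copies are not independent observations, and the share of all genes that were highest in CML115 was not computed. There NKD1 was at 3.24 FPKM, one of its 5 highest values. CML115 was not among the 6 highest lines of any other member. NAC128 and O2 had 0 counts in CML115, but this held for 301 and 297 lines. Over all lines Spearman's rho of the 19 zeins with NKD1 lay between -0.051 (z1C1_12) and 0.11 (z1C1_5). A link of zein levels to NKD1 was not tested. Starch genes differed from zeins in how many were on. Of 10 with a RefSeq name, 8 were on, beside 51.7% of all genes in the table, and the difference from that share was not tested. Highest were the sucrose synthase Sh1 (46.99 FPKM) and the branching enzymes Ae1 (29.7 FPKM) and Sbe1 (20.99 FPKM). Sh2, the large subunit of ADP-glucose pyrophosphorylase, was at 0.75 FPKM and Bt1 at 0. The other identifier on the starch list, GRMZM2G138060, has no RefSeq name and was on as well (6.83 FPKM). Of 4 other genes known as O2 targets, Lkr/sdh1 of lysine breakdown was on (7.74 FPKM), and Rip1, the b-32 ribosome-inactivating protein, Ppdk1 and Ppdk2 were at 0.65, 0.64 and 0.43 FPKM. Of 10 identifiers listed as other seed regulators, 6 carry a matching RefSeq name, and of these 6 ZmICE1 alone was on by its median (24.5 FPKM). O11 was at 0.092 FPKM, Vp1, the ABA-response regulator of seed maturation, at 0.0049 FPKM, and Fl3, C1 and Lec1 at 0. Among the 4 identifiers with no matching name, GRMZM2G059102 (11.4 FPKM, on in 311 lines) and GRMZM2G035701 (1.92 FPKM, on in 258 lines) were on by their median as well, and GRMZM2G043600 (0.37 FPKM) and GRMZM2G111306 (0 FPKM) were not.

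Whether the regulators rise together was asked over lines, with Pearson's r of log2(FPKM + 1) and a two-sided permutation test of 100000 resamples, adjusted over 28 pairs. Of these, 8 pairs passed, 4 positive and 4 negative. NKD1 and NKD2 rose together (r = 0.36, Spearman's rho = 0.38, adjusted p = 0.00014 for r and 9.333e-05 for rho). Leaving out the 2 lines most distant from the NKD1 median gave r = 0.33. The pair was positive within each name series, at r = 0.31 in unprefixed, 0.33 in CIMBL, 0.65 in CML and 0.33 in GEMS lines, the last with an adjusted p of 0.241 within the series by permutation. OHP2 ran against both, with r = -0.30 for NKD1 (rho = -0.34, adjusted p = 0.00014) and r = -0.18 for NKD2 (rho = -0.25, adjusted p = 0.005553). With the 2 lines most off the median of OHP2 left out these were -0.31 and -0.19. Within series the correlation of OHP2 and NKD1 was -0.35, -0.29, -0.19 and -0.37 in unprefixed, CIMBL, CML and GEMS lines, and the unprefixed lines alone passed the threshold.

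OHP2 and NAC130 rose together (r = 0.25, rho = 0.30, adjusted p = 0.0001867), with 0.35, 0.043, 0.36 and 0.21 within the same series in that order, and 0.27 with the same 2 lines left out. NKD1 and NAC130 went in opposite directions (r = -0.17, rho = -0.25, adjusted p = 0.0094). This pair was at -0.36, -0.084 and -0.22 in unprefixed, CIMBL and GEMS lines and at 0.17 in CML lines, and at -0.17 with the 2 lines most off the median of NKD1 left out. In the 286 lines of the upper OHP1 cluster it did not pass (r = -0.14, adjusted p = 0.0636 by permutation). OHP1, taken within the 286 lines of its upper cluster, was correlated with NKD1 (r = -0.17, rho = -0.16, adjusted p = 0.02095), and with no other member past the threshold. Within series this pair was taken over all lines, the near-silent OHP1 lines included. It was at -0.27 in unprefixed, 0.0080 in CIMBL, -0.090 in CML and -0.31 in GEMS lines.

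The correlation of NAC128 with NAC130 rested on CML114. It was 0.37 over 318 lines (adjusted p = 0.00098) and 0.10 without that line (adjusted p = 0.154, both by permutation). PBF1 with OHP2 also passed (r = 0.15, adjusted p = 0.03206), but PBF1 had at most 4 counts in a line, its rank correlation did not pass (rho = 0.087, adjusted p = 0.228), and neither did r in the upper OHP1 cluster (0.13, adjusted p = 0.09 by permutation).

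**Figure D4:**
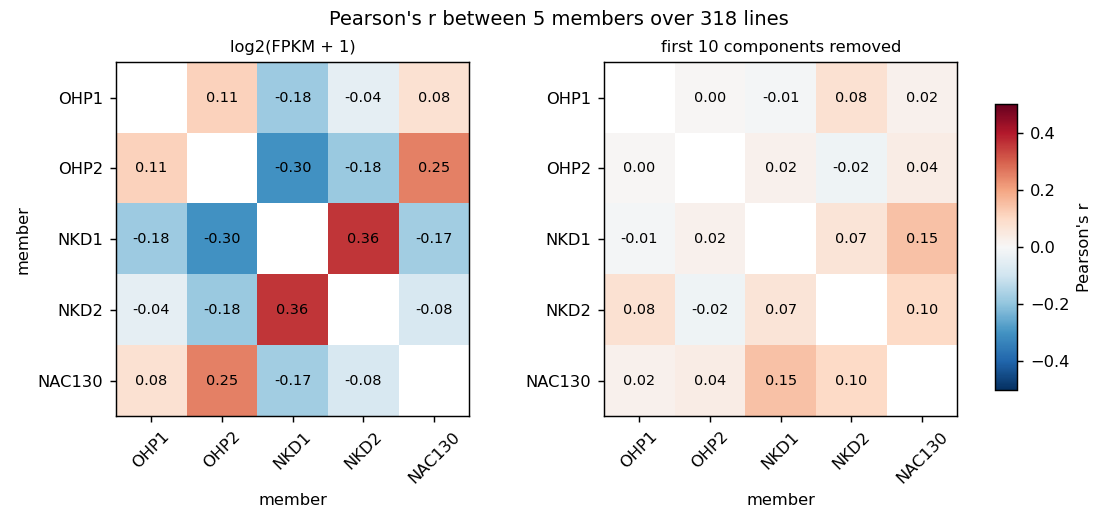
Pearson's r between the 5 members detected in most lines, over 318 lines, on log2(FPKM + 1) (left) and after the first 10 principal components of the other genes were removed (right). The value of NKD1 with NKD2 is 0.36 on the left and 0.07 on the right. The pooled values of OHP1 include its 32 near-silent lines.

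These relations moved with the main axes of variation among libraries. The first 10 principal components of 27269 genes, with the members left out, held 40.2% of the variance of those genes. They held 53.6% of the variance of NKD1, 44.9% of OHP2, 31.9% of NAC130 and 26.2% of NKD2, but 8.62% of OHP1. With them removed, 1 of 28 pairs passed, the one of NAC128 and NAC130 that rests on CML114. NKD1 with NKD2 then had r = 0.066, OHP2 with NKD1 0.020 and NKD1 with NAC130 0.15, none past the threshold. What the components stand for was not tested. Total count moved little with the members, since Spearman's rho lay between -0.070 for OHP2 and 0.080 for NKD2.

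The same split appeared when each member was set against 20480 other genes with a median of at least 1 FPKM, by Spearman's rho over the 318 lines, as a description without a test. At least 0.3 was reached with OHP2 by 9.0% of genes, with NAC130 by 8.57%, with NKD1 by 7.06% and with NKD2 by 1.24%, and -0.3 or lower by 5.03%, 3.94%, 8.94% and 1.95% in that order. With OHP1 these shares were 0.0146% and 0.00977%, or 3 and 2 genes. OHP1 thus varied widely but almost apart from the rest of the profile. All values share the same libraries and normalization.

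The 3 genes closest to OHP1 were igl1 (GRMZM2G046191, rho = 0.44), whose product releases indole in defence, GRMZM2G019361 (rho = 0.34) and GRMZM2G323261 (rho = 0.30). In RefSeq gene order igl1 lies 3 and GRMZM2G019361 lies 9 protein-coding genes from OHP1, and GRMZM2G323261 lies 294 away on the same chromosome. Within the 286 lines of the upper cluster their rho was 0.43, 0.43 and 0.29. Of the 20 genes with the largest absolute rho with OHP1 and a RefSeq position, 3 lay within 50 genes of it, a neighbourhood that holds 0.364% of all genes so placed. For OHP2, NKD1, NKD2 and NAC130 the count was 0 of 20. In the 32 near-silent lines igl1 had a median of 2.17 FPKM (0 to 18.1 FPKM) and in the other 286 of 9.44 FPKM (0 to 59.4 FPKM), so its values overlapped and igl1 was not off with OHP1.

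The genes closest to OHP2 were GRMZM2G135410 (rho = 0.61), GRMZM2G100650 (rho = 0.59) and fdx3, a ferredoxin gene (GRMZM2G053458, rho = 0.58, median 232.3 FPKM). With the components removed these fell to 0.16, 0.038 and 0.087. Chosen after their values were seen, the gene closest to NKD1 was lg4 (liguleless4, GRMZM2G094241, rho = 0.64). Crinkly4 (cr4, GRMZM2G051637), the receptor kinase needed for aleurone identity, was among the 3 lowest for NAC130 (rho = -0.55) and had rho = 0.45 with NKD1, 0.26 with NKD2 and -0.37 with OHP2. These values were between -0.12 and 0.071 with the components removed.

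A minority of the starch genes varied with any 1 member. Of the 8 with a RefSeq name that were on, 3 had rho of at least 0.3 with NKD1, a level reached by 7.06% of all 20480 genes. These were Su2, the starch synthase IIa gene (0.48), Bt2, the small subunit of ADP-glucose pyrophosphorylase (0.36), and Sbe1 (0.34). With OHP2, 3 were at -0.3 or lower (5.03% of all genes), Bt2 (-0.40), Sbe1 (-0.36) and Ss1, a soluble starch synthase (-0.33). With NAC130, Sbe1 (-0.39) and Bt2 (-0.33) were at -0.3 or lower (3.94% of all genes) and Wx1, the granule-bound starch synthase, was above 0.3 (0.33, against 8.57% of all genes). With NKD2, Su2 (0.34) and Bt2 (0.31) were above 0.3 (1.24% of all genes). With the 10 components removed no starch gene that was on reached 0.3 with any of the 5 members, and the values lay between -0.17 and 0.17. Su2, Bt2 and Sbe1 then had rho of 0.044, 0.047 and 0.0078 with NKD1, and Bt2 had -0.17 with OHP2. The median rho of the 8 genes was 0.080 with NKD1 and -0.21 with OHP2, beside medians of 0.0044 and -0.011 over all 20480 genes. With OHP1 none of the 8 reached 0.3 in either direction, and GRMZM2G138060 reached it with none of the 5 members. Mn1 had rho = -0.26 with OHP2 and 0.14 with NKD1, and ZAG2 had rho = 0.17 with NKD1 and -0.064 with OHP2. The part of tissue make-up in these relations was not tested. For O2 and PBF1, counts were too sparse for such relations, and the largest absolute rho of any list gene with either was 0.23, for a zein with at most 1 count in a line (z1A1_5).

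The name series were compared in counts with edgeR's quasi-likelihood test and Benjamini-Hochberg adjustment over 26440 genes, of which OHP1, OHP2, NKD1, NKD2 and NAC130 passed the filter on low counts and O2, PBF1 and NAC128 did not. Against unprefixed lines, 24.3% of all genes tested differed in CIMBL, 12.9% in CML and 4.24% in GEMS lines. OHP2 was lower in GEMS lines, with a mean of 13.9 ± 3.13 FPKM (n = 46) against 16.3 ± 4.42 FPKM in the unprefixed lines, a log2 difference of -0.23 ± 0.066 (SE, adjusted p = 0.0197). In CIMBL lines OHP2 was higher (17.8 ± 5.29 FPKM, n = 98, log2 difference 0.13 ± 0.050, adjusted p = 0.0421) and NKD1 lower (0.80 ± 0.63 against 1.09 ± 0.91 FPKM, log2 difference -0.44 ± 0.16, adjusted p = 0.0289). The call of OHP2 was lost with DESeq2 (adjusted p = 0.0591), and both calls were lost among the lines for which the study lists mapping statistics (0.129 for OHP2 and 0.0529 for NKD1). So 2 of 5 members passed in CIMBL, 0 of 5 in CML and 1 of 5 in GEMS lines, counts too small to set apart from the shares over all genes.

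In CML lines 0 members had an unadjusted edgeR p under 0.05 (the smallest was 0.0521, for OHP2), and DESeq2 and limma also called 0. NAC130 there had a median of 0.24 FPKM against 0.32 FPKM in unprefixed lines, yet a fitted log2 difference of 0.34 (adjusted p = 0.484), which became -0.43 without CML114 (adjusted p = 0.361). OHP1 was highest in GEMS lines (14.2 ± 12.0 FPKM, against 10.0 ± 9.52 FPKM in unprefixed lines), a log2 difference of 0.50 ± 0.27 that did not pass (adjusted p = 0.303).

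In place of replicates, pairs of lines with nearly the same set of expressed genes were compared. Over 673 genes that were at 0 counts in 20 to 80% of lines, the median pair of lines disagreed in 43.8% of genes, and 32 pairs, formed by 48 lines in 21 sets, disagreed in fewer than 15%. This limit was chosen after the data were seen. The absolute difference of OHP1 in log2(FPKM + 1) had a median of 0.31 in these pairs and of 1.18 in all 50403 pairs. For OHP2 the medians were 0.21 and 0.36, for NKD1 0.25 and 0.45, for NKD2 0.11 and 0.21, and for NAC130 0.26 and 0.37. OHP1 was near 0 in both lines in 2 of the pairs, CHANG3 with K10 and 4019 with GEMS60, in neither line in 30, and in 1 line alone in 0, while 18.2% of all pairs hold 1 such line alone. The closest pair, B111 and GEMS9, had OHP1 at 22.7 and 25.6 FPKM and OHP2 at 11.4 and 12.5 FPKM, but NAC130 at 1.20 and 0.23 FPKM. Some of the pairs differed widely in OHP1. Its largest difference, 2.36, was the largest of any member and lay between GL178 (7.06 FPKM) and HZ4 (40.3 FPKM). Pairs of 1 set share lines, so they are not independent.

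**Figure D5:**
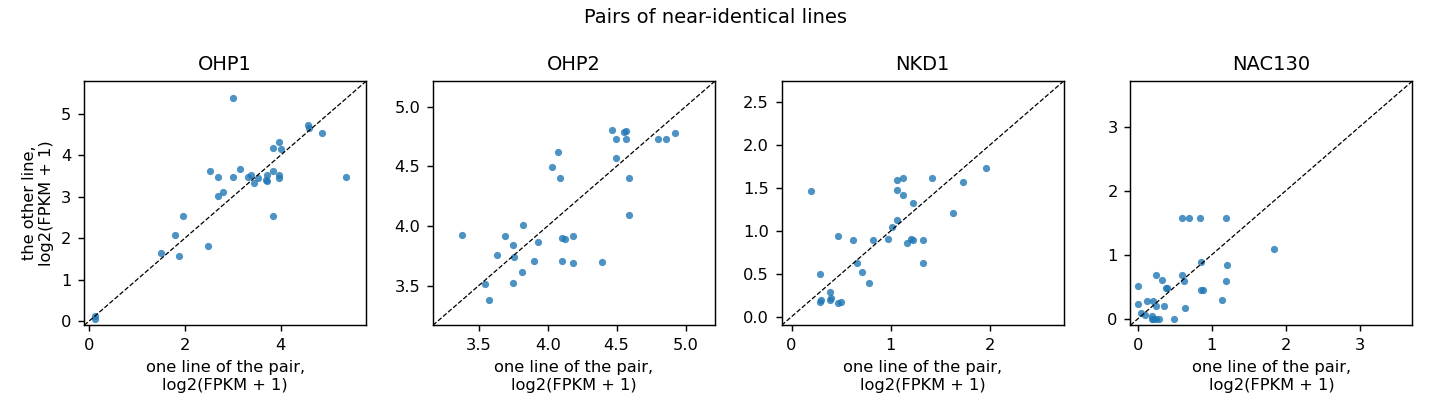
Levels of 4 members in the 32 pairs of near-identical lines as log2(FPKM + 1), with 1 line of each pair on either axis, a dashed line of equal level and axes that span all 318 lines. The median absolute difference is 0.31 for OHP1 and 0.26 for NAC130, and in 2 pairs both lines are at the foot of OHP1.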

How the data were processed

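Kernels of 318 maize inbred lines at 5 DAP were sequenced, with 1 library per line. The count table deposited by the authors holds whole-number counts per gene, from paired reads mapped with TopHat2 to B73 RefGen_v3 and restricted to unique alignments, counted without strand on the gene models. Versions are not given in the sources used here. The deposited FPKM are the counts divided by DESeq2 size factors and by 1 constant per gene, as was checked on the values (largest relative difference 1.6e-14). That constant was read as gene length, which was not checked against gene models. Unique alignment can undercount near-identical copies such as the OHP, NKD and NAC pairs and the zein genes.

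Lines were grouped by the prefix of their name. The members, gene lists and comparisons were chosen with earlier results of these data known. Levels were described by median FPKM and counts. Paired differences and correlations used log2(FPKM + 1) with 100000 resamples. Series were compared with edgeR 4.0.16 (TMM, filterByExpr, 1 fit over all lines), limma and DESeq2. SEs were taken from the F statistic. The fits and correlations were tested on simulated data. P-values measure the spread between lines, of which some are related. Alternatives were other thresholds, pseudocounts, normalizations, tools and sets of lines. Named genes were the members, for each list the 3 with the highest median and the 3 with the largest absolute rho with O2 or PBF1 (here named only where counts allow), and the 3 genes closest to each member that was on. Named lines were the highest and lowest of a member. Others are marked as chosen later. RefSeq genes (Zm-B73-REFERENCE-NAM-5.0, another build) were used for names and gene order only. They matched 8 of 8 members and 42 of 52 list genes, of which 41 are described by name. The other, GRMZM2G059102, had been listed as MADS47, a name that RefSeq gives to another identifier, so it is reported by identifier. Sequences were not used here. Depth ranged from 6100624 to 29629212 counts, so 3 counts of a 1-kb gene are 0.214 FPKM at the median depth. Computations used R 4.3.3 and Python 3.11.15.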

Additional observations from a re-analysis of the deposited data

How the results depend on the processing

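The number of members on was 2 under each alternative except a threshold of 0.5 FPKM and a median count of at least 10, under which it was 3. No member's median moved by more than its SD over lines, but that limit is wide and hard to pass. Across the normalizations and sets of lines the median was 8.47 to 8.85 FPKM for OHP1. It was 15.5 to 15.9 FPKM for OHP2 and 0.67 to 0.71 FPKM for NKD1. Of the pairs of members, 26 differed in level (27 with a pseudocount of 0.1 or without CML114, the added pair being PBF1 with NAC128). All 10 that could be compared differed where both genes had at least 10 counts, which leaves fewer pairs to test. There NKD1 minus NAC130 turned from 0.32 to -0.12, but that minimum selects lines high in NAC130, so it does not order these 2 genes. The 8 correlated pairs became 1 with the first 10 principal components removed, and 0 there by Spearman's rho. In that setting Pearson's r of OHP2 with NKD1 turned to 0.020 and of NKD1 with NAC130 to 0.15. The other alternatives that pooled the name series gave 6 to 10 pairs. Within single series, with fewer lines each, r passed for 7 pairs in unprefixed, 1 in CIMBL, 1 in CML and 0 in GEMS lines. With counts scaled by the library total alone, OHP2 with NAC130 (0.10) and OHP2 with NKD2 (-0.11) did not pass. In the lines with OHP1 at 0.1 FPKM or more, NKD1 with NAC130 (-0.14) and PBF1 with OHP2 (0.13) did not pass. The cause was not tested.

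The 2 members that differed in CIMBL lines became 1 with RLE size factors, DESeq2 and limma on log2(FPKM + 1), and 0 with limma on log2(FPKM + 0.1) and in the lines listed with mapping statistics. In CML lines the count rose from 0 to 1 without a filter on low counts, which let in NAC128 with its value in CML114. In GEMS lines it was 1 under each alternative, OHP2 each time. Differences that were not past the threshold changed sign as follows. OHP1 turned to 0.025 in CIMBL lines with limma on log2(FPKM + 0.1), and to 0.25 and 0.44 in CML lines with limma at pseudocounts 1 and 0.1. NAC130 in CML lines turned to -0.033 and -0.21 with the same fits, and to -0.43 without CML114. NKD2 turned to 0.048 in CIMBL and -0.23 in CML lines among the listed lines, and to -0.037 in CML lines without CML114. Leaving out CML114 and the OHP1-low lines were alternatives chosen after the data were seen. Depth limits the low members. O2, PBF1 and NAC128 rest on single counts, and NKD2 and NAC130 on medians of 6 and 8 counts.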
